A study of Mus musculus with 70 samples.

Results

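Zfp672, Ccdc104 and 2610528A11Rik are 3 little-known mouse genes whose main spots on the MPIP24k cDNA array read lower in HAB than in LAB mice in every brain region sampled. They were taken by their spot positions and names, and 1 further spot that carries the name of Ccdc104 was added, which makes 4 spots of 3 genes among 22824 probes (24192 spots with controls and empty positions). The mean ratio over the regions and its evenness chose these genes, so all HAB/LAB values below describe them and are not tested.

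HAB and LAB are lines of CD-1 (ICR) mice. HAB mice were bred over generations toward strong anxiety-like avoidance, and LAB mice toward little of it. For each of 7 regions, RNA was punched from frozen brains of untreated (basal) 10-week-old males and pooled from 6 HAB or 6 LAB animals. According to the paper, the mice had been tested on the elevated plus-maze and by tail suspension, the latter only days before they were killed. The HAB pool was hybridized together with the LAB pool of the same region on 10 arrays, and the dyes were exchanged so that Cy3 marked HAB on 5 of them and Cy5 on the other 5. The regions were the hypothalamic paraventricular nucleus (PVN), the basolateral (BLA), central (CeA) and medial (MeA) amygdala, the nucleus accumbens (NAc), the cingulate cortex (Cg) and the supraoptic nucleus (SON). Since 1 HAB and 1 LAB pool served all 10 arrays of a region, the arrays are technical replicates. An SD over arrays, and the tests of dye orientation and of level, measure the spread between arrays. An SD over 7 regions, and the line test, which was fitted to 7 region means per probe, measure the spread between region means. That spread includes the spread between arrays. None of them measures the spread between mice. In pooled tissue, fewer cells of a type and less RNA per cell cannot be told apart.

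Zfp672 encodes a zinc finger protein of the C2H2 class, a fold with which many transcription factors grip DNA. Its own targets are little known. Ccdc104 (RefSeq symbol Cfap36) encodes a coiled-coil protein that binds ARL3, a small GTPase that releases lipid-modified proteins into the primary cilium. 2610528A11Rik (synonym Gpr15l) encodes a small secreted protein that activates the receptor GPR15 and is best known from skin and gut epithelium rather than from brain.

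All 3 genes are protein coding in RefSeq (build GRCm38.p6). Zfp672 lies on the minus strand at chr11:58315114-58330368, Ccdc104 on the minus strand at chr11:29218918-29247317, and 2610528A11Rik on the minus strand at chr14:37102140-37110101. The windows around their starts (250 bases before to 50 after) are shown because these genes share a direction in every region and are compared by what their promoters hold. They come from the RefSeq reference genome, not from the CD-1 lines. Capitals mark matches on either strand to 4 motifs, none of which overlap in the windows printed. The GC box was searched as GGGCGG. The CCAAT box was searched by the letters of its name. The ETS core was searched as CCGGAAG. The TATA box was searched as TATAAA. Zfp672 has 3 windows, of which the first (chr11:58323316-58323615) and the second (chr11:58330290-58330589) are given, since the third overlaps the first. The Ccdc104 window is chr11:29247223-29247522 and that of 2610528A11Rik is chr14:37110052-37110351.
Zfp672 window 1: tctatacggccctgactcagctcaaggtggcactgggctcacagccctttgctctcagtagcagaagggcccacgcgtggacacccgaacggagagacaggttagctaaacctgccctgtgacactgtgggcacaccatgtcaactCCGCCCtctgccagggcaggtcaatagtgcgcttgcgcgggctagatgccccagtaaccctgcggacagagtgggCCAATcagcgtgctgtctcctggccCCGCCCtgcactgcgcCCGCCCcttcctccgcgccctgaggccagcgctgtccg
Zfp672 window 2: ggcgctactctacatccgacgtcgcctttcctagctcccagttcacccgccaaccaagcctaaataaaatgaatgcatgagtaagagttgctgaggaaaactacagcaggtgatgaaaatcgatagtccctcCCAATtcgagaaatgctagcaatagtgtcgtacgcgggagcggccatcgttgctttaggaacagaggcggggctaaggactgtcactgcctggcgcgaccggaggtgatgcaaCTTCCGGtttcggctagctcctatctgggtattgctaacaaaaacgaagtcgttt
Ccdc104: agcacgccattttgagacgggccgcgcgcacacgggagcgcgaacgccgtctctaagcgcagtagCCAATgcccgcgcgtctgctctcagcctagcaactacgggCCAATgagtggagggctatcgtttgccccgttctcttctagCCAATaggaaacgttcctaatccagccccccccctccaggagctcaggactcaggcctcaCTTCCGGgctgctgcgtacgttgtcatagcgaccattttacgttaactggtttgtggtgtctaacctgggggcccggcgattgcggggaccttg
2610528A11Rik: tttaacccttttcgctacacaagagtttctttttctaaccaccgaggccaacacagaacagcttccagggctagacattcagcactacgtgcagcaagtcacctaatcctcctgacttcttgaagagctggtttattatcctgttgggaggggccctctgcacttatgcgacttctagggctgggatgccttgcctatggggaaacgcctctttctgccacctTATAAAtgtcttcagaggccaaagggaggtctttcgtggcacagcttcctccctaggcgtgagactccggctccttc

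The promoters of the 3 genes did not all look alike. The first Zfp672 window held 3 GC boxes and 1 CCAAT at 64.7% G and C, and the second held 1 CCAAT and 1 ETS core at 51.3%. The Ccdc104 window held 3 CCAAT and 1 ETS core at 60.3%, and the 2610528A11Rik window held 1 TATAAA at 51.3%. Of 32851 promoter windows of the same length, 35.7% held a GC box, 37.4% CCAAT, 8.9% the ETS core and 13.6% TATAAA, and the median G and C content was 52.7%. No motif of the 4 was present at all 3 genes. The second Zfp672 window and the Ccdc104 window shared CCAAT and the ETS core and held neither of the other motifs. A match is a run of letters and not a bound site.

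A spot counted as above the empty spots on an array when its log2 intensity exceeded their median (over 1170 positions) by more than 2 median absolute deviations. Median probe intensities ran from 135 to 2480 across arrays and the median of the empty positions from 39.98 to 940. In the HAB channel the limit set by the empty spots was 233 to 337 in PVN. It was 540 to 10385 in BLA and 336 to 6722 in CeA, so counts above the empty spots there also depend on these higher limits. No channel had more than 23 spots at the top of the scale. Of 22824 probes, 6993 were above the empty spots on at least 35 of 70 arrays in the HAB or the LAB channel. Region markers followed the labels in part, with 10 of 17 highest in a region they mark, but only 2 of the 6 that were above the empty spots (Tac1 in NAc and Gad1 in CeA). The other 4 were highest elsewhere, the CeA markers Prkcd in Cg, Pdyn in NAc and Sst in PVN, and the MeA marker Esr1 in CeA. Of the dim markers, Trh and Oxt were highest in PVN, Avp in SON and Camk2a in Cg, while the NAc markers Adora2a, Penk and Ppp1r1b were highest in PVN, BLA and MeA. For the background, the limma test over the 7 regions called 0.302% of all probes different between lines (29 higher and 40 lower in HAB).

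Zfp672 was lower in HAB in all 7 regions and on 69 of 70 arrays. Its log2 HAB/LAB averaged -1.06 ± 0.105 (SD over 7 regions), a 2.09-fold lower level in HAB. Single arrays ran from -2.16 to 0.32 with a median of -1.11, and the 1 array above 0 was CeA replicate 1 with HAB in Cy3. Of all probes, 1.05% were lower in HAB in all 7 regions (1.43% of those above the empty spots) and 0.0175% were lower on at least 69 of 70 arrays. These shares only describe where the gene stands, because the gene was picked on this contrast.

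The ratios of Zfp672 lay close together from region to region. In PVN its log2 HAB/LAB ran from -1.48 to -0.90 with a median of -1.30 over the 10 arrays and averaged -1.22 ± 0.214 (SD, n = 10). In SON it ran from -1.86 to -0.38 (median -1.26) and averaged -1.17 ± 0.490. In MeA it ran from -1.73 to -0.37 (median -1.09) and averaged -1.12 ± 0.540. These 3 regions had the lowest means, and all of their arrays were lower in HAB. In Cg it ran from -1.67 to -0.32 (median -1.14) and averaged -1.04 ± 0.415. In NAc it ran from -2.16 to -0.52 (median -0.79) and averaged -1.02 ± 0.552. All 10 arrays of both regions were lower in HAB. In CeA it ran from -2.13 to 0.32 (median -1.14) and averaged -0.95 ± 0.760, and in BLA from -1.59 to -0.16 (median -1.07) with a mean of -0.95 ± 0.444. CeA was thus the region where the arrays disagreed most, with 9 of 10 lower in HAB. The whole span of the 7 means was 0.27 on the log2 scale, against an SD of 0.511 between arrays of 1 region and a standard error of 0.162 for a region mean.

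**Figure D1:**
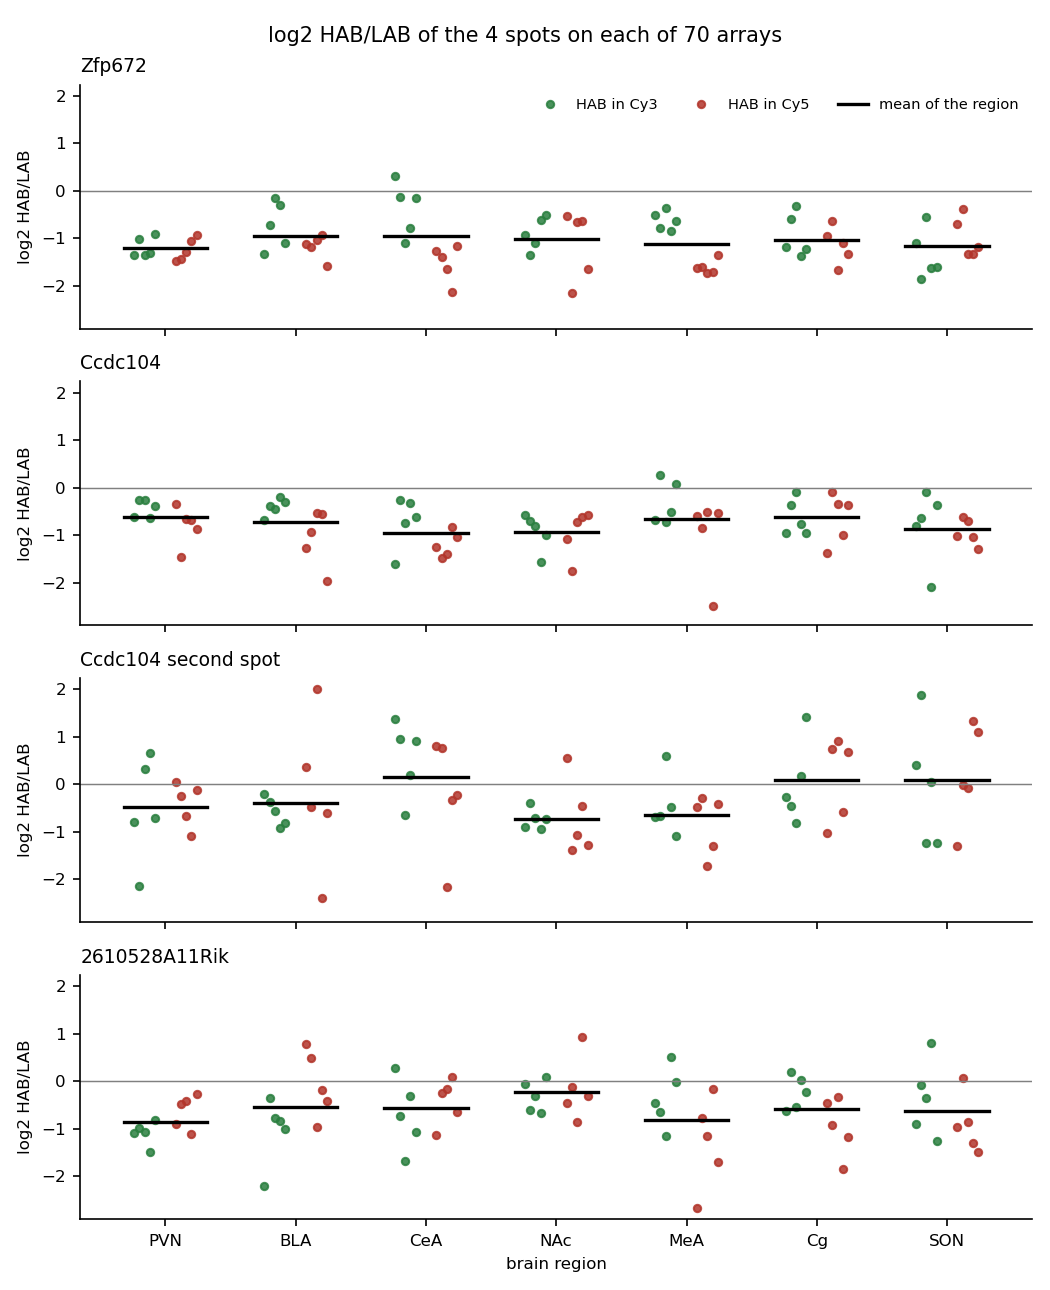
Log2 HAB/LAB (vertical axis) of each spot on each of the 70 arrays, by brain region, with arrays that carry HAB in Cy3 in green and in Cy5 in red, and the region mean as a bar. Zfp672 has 1 array above 0 and Ccdc104 has 2, while the second Ccdc104 spot lies on both sides of 0.

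The plot of ratios by array shows the same direction in all columns for Zfp672, for the first Ccdc104 spot and, with more scatter, for 2610528A11Rik. The signal of Zfp672 was above the empty spots on 55 of 70 arrays in the HAB channel and on 67 of 70 in the LAB channel. In BLA it was above them on 4 HAB and 8 LAB arrays, and in PVN and MeA on all 10 of each line. As normalized log2 intensity in PVN, HAB pools read 10.22 to 10.96 (median 10.62) and LAB pools 11.19 to 12.14 (median 11.94). PVN was the region in which the array values of the 2 lines did not overlap.

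Ccdc104 was lower in HAB in all 7 regions and on 68 of 70 arrays. Its log2 HAB/LAB averaged -0.77 ± 0.148 (SD over 7 regions), a 1.71-fold lower level in HAB. Single arrays ran from -2.49 to 0.26 with a median of -0.68. Both arrays above 0 were of MeA with HAB in Cy3 (replicates 2 and 5). The spot was above the empty spots on 46 of 70 HAB and 62 of 70 LAB readings. CeA had the fewest such HAB arrays, 2 of 10, against 9 of 10 in LAB.

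By region mean, the order was not that of Zfp672, though regions with close means cannot be ordered. The 7 means of Ccdc104 spanned 0.34, against a standard error of 0.163 for a region mean. The log2 HAB/LAB of Ccdc104 in CeA ran from -1.62 to -0.26 (median -0.94) and averaged -0.96 ± 0.478 (SD, n = 10). In NAc it ran from -1.76 to -0.57 (median -0.77) and averaged -0.95 ± 0.416. In SON it ran from -2.10 to -0.09 (median -0.76) and averaged -0.87 ± 0.552. These were the lowest 3, and every array in them was lower in HAB. In BLA it ran from -1.96 to -0.20 (median -0.55) and averaged -0.73 ± 0.534. In MeA it ran from -2.49 to 0.26 (median -0.57) and averaged -0.66 ± 0.733, with 8 of 10 arrays lower. In Cg it ran from -1.38 to -0.08 (median -0.57) and averaged -0.63 ± 0.438. MeA was the region with the widest scatter. In PVN, where Zfp672 was lowest, Ccdc104 had its smallest difference, from -1.47 to -0.25 (median -0.64) with a mean of -0.62 ± 0.366. The normalized log2 intensities of the lines overlapped in every region for this spot, in PVN with 8.39 to 10.27 in HAB and 9.05 to 10.89 in LAB.

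The second spot with the name of Ccdc104 read differently. Its log2 HAB/LAB averaged -0.27 ± 0.377 (SD over 7 regions), and it was lower in HAB in 4 of 7 regions and on 47 of 70 arrays. The mean was -0.73 in NAc, -0.65 in MeA, -0.47 in PVN and -0.40 in BLA, but 0.17 in CeA, 0.08 in Cg and 0.09 in SON. Signal was scarce. It was above the empty spots on 3 of 70 arrays in the HAB channel and 9 of 70 in the LAB channel, and in BLA and CeA on no array of either line. In PVN no HAB array and 5 LAB arrays were above them. With the dim line held at the limit of the empty spots, no region in which 1 line had no array above them (PVN, Cg and SON) gave a ratio over 1, so no fold is given there. The median intensity of this spot was 233 in HAB and 293 in LAB, against 773 in HAB and 1169 in LAB for the first spot. The clone sequences behind the 2 spots were not used here.

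2610528A11Rik was lower in HAB in all 7 regions and on 59 of 70 arrays, with more scatter than the first spots of the other genes. At least 60 of 70 arrays were lower for 0.0613% of all probes, a count it missed by 1 array. Its log2 HAB/LAB averaged -0.61 ± 0.207 (SD over 7 regions). The spot was dim, above the empty spots on 19 of 70 HAB and 35 of 70 LAB readings, so no fold is given for this mean. In PVN, where 4 HAB and 10 LAB arrays were above them, log2 HAB/LAB ran from -1.49 to -0.27 (median -0.94) and averaged -0.86 ± 0.376 (SD, n = 10). In MeA, with 4 HAB and 7 LAB arrays, it ran from -2.67 to 0.50 (median -0.71) and averaged -0.82 ± 0.906. PVN was the only region with all 10 arrays lower. In SON it ran from -1.49 to 0.81 (median -0.89) and averaged -0.63 ± 0.728. In Cg it ran from -1.84 to 0.19 (median -0.50) and averaged -0.59 ± 0.599. In both, 8 of 10 arrays were lower in HAB. In CeA it ran from -1.69 to 0.29 (median -0.48) with a mean of -0.56 ± 0.610, and in BLA from -2.20 to 0.78 (median -0.60) with a mean of -0.54 ± 0.836. In these 2 regions no HAB array was above the empty spots (2 LAB arrays in CeA, 1 in BLA), and with HAB held at that limit neither gave a ratio over 1. NAc had the smallest difference, from -0.85 to 0.93 (median -0.30) with a mean of -0.23 ± 0.504. In every region but PVN the mean of this spot lay within 1 SD of 0.

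The 3 brightest spots of the genes were among the 40 probes that the limma test called lower in HAB (0.175% of all probes), which is what their choice implies. By mean difference Zfp672 was rank 4, Ccdc104 rank 8 and 2610528A11Rik rank 13 from the lowest of all probes. The SD over the regions ran from 0.105 to 0.456 among the 40, with a median of 0.250. Zfp672 had the smallest of them, 3 of the 40 had a smaller SD than Ccdc104, and 10 a smaller SD than 2610528A11Rik. Of all probes, 3.10% had a smaller SD than Zfp672 and 41.1% a smaller one than 2610528A11Rik. The SD over the regions of Zfp672, Ccdc104 and 2610528A11Rik was 0.105, 0.148 and 0.207. Each lay below the standard error of a region mean (0.162, 0.163 and 0.213, from the spread between arrays). Evenness over regions thus cannot be told apart from the spread between arrays here. The median absolute mean over all probes was 0.06. In 6 probes, Zfp672 and Ccdc104 among them, the log2 HAB/LAB was -0.5 or lower in every region.

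**Figure D2:**
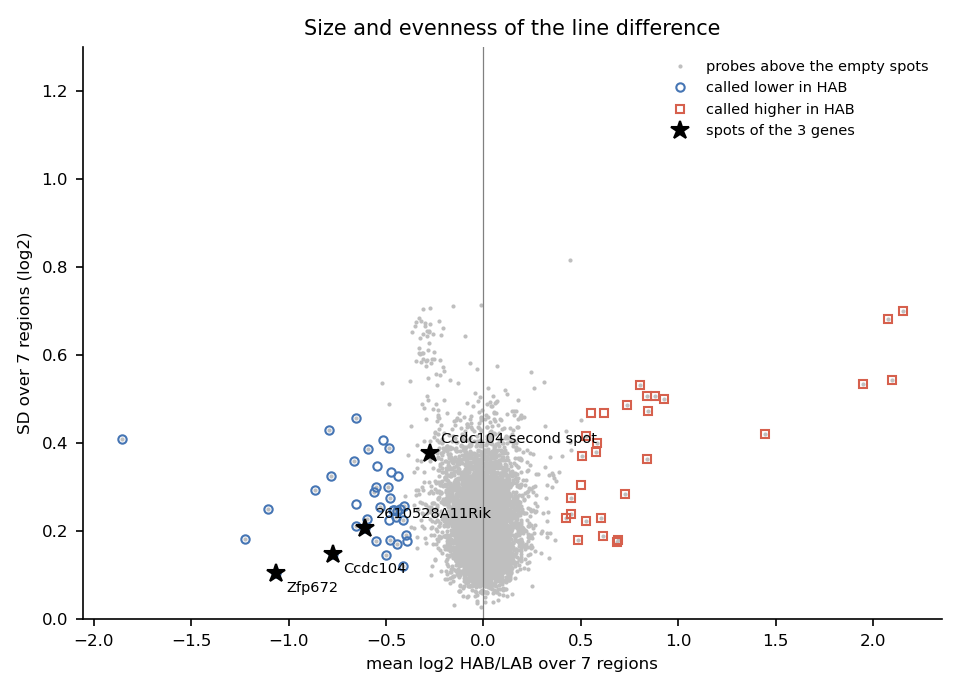
Mean log2 HAB/LAB over 7 regions (horizontal axis) against its SD over the regions (vertical axis, log2) for the 6993 probes above the empty spots and the probes called by limma, with the 4 spots as stars. Zfp672 combines a mean of -1.06 with an SD of 0.105, the smallest among the 40 probes called lower in HAB.

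The plot of mean against SD places the 3 genes at its left, Zfp672 lowest and 2610528A11Rik at the middle height of the main cloud, and the second Ccdc104 spot in the upper part of the main cloud. The next probes by mean on either side of each gene were read from the 239 probes lower in all 7 regions. Above Zfp672 in size came matrix metalloproteinase 15 (-1.22) and RIKEN cDNA 5230400G24 (-1.11), and below it RIKEN cDNA 1110008E19 (-0.86) and a spot of RIKEN cDNA C330012F17 (-0.79). Around Ccdc104 stood that spot and a second spot of 5230400G24 (-0.78) on the larger side, and metallothionein 1 (-0.67) and an unnamed EST (-0.65) on the smaller. Around 2610528A11Rik stood a second spot of 1110008E19 (-0.65) and syndecan 2 (-0.65), then 9030612M13 (-0.60) and another spot of 1110008E19 (-0.59).

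Measured over both lines together, which the choice did not use, 2 of the genes differed in level between regions. The limma F-test over the 70 arrays called 73.1% of all probes different between regions at an adjusted p under 0.05, so a call by itself is the usual case. Zfp672 passed (F = 4.92, adjusted p = 0.000601). Its mean normalized log2 intensity was highest in PVN (11.19 ± 0.271, SD, n = 10), Cg (11.18 ± 0.365) and MeA (11.16 ± 0.324). It was lower in SON (10.55 ± 0.547), NAc (10.52 ± 0.612), CeA (10.49 ± 0.651) and BLA (10.38 ± 0.684). Only the gap of 0.61 between MeA and SON exceeded the SD of both neighbours. The level lay at percentile 93.8 of all probes.

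2610528A11Rik also passed in limma (F = 6.28, adjusted p = 6.2e-05). Its log2 intensity was highest in SON (9.56 ± 0.377), followed by NAc (9.07), MeA (9.06), Cg (8.84) and PVN (8.80). It read 8.83 in CeA and 8.32 ± 0.425 in BLA, where no HAB array was above the empty spots. By that limit these levels count as background, and they were not ranked. The gap between SON and NAc (0.49) exceeded the SD of both. Ccdc104 did not pass in limma (F = 1.51, adjusted p = 0.218). Its levels ran from 10.16 ± 0.517 in MeA to 9.63 ± 0.595 in CeA, with no gap between neighbours beyond their SD. The second Ccdc104 spot did not pass either (F = 1.21, adjusted p = 0.346). Regions were hybridized and, in part, scanned apart, so region and hybridization cannot be told apart in these levels.

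**Figure D3:**
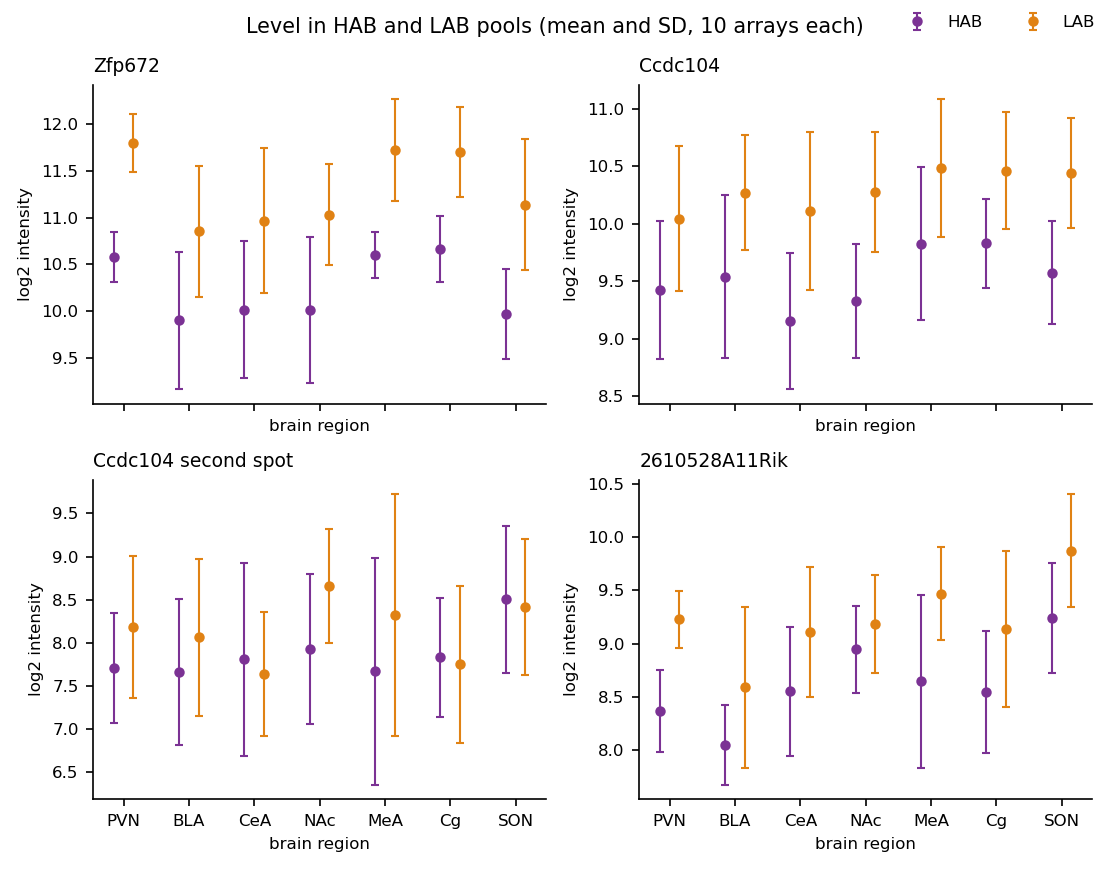
Normalized log2 intensity (vertical axis, mean and SD of 10 arrays) of the 4 spots in HAB pools (purple) and LAB pools (orange) by brain region, with a scale of its own in each panel. HAB lies below LAB in every region for Zfp672, the first Ccdc104 spot and 2610528A11Rik, and the second Ccdc104 spot has HAB above LAB in CeA, Cg and SON.

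In the plot of levels by region, the line difference of Zfp672 stayed near 1 log2 unit whether the region was bright or dim. HAB averaged 10.58 and LAB 11.80 in PVN, and HAB 9.90 and LAB 10.85 in BLA. For 2610528A11Rik the SON values were highest in both lines, 9.24 ± 0.518 in HAB and 9.87 ± 0.529 in LAB.

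The genes did not follow each other closely from array to array. After the mean of each region and dye orientation was taken off, the correlation over the 70 arrays was 0.18 between Zfp672 and Ccdc104, 0.11 between Zfp672 and 2610528A11Rik and -0.21 between Ccdc104 and 2610528A11Rik. The same arrays, pools and normalization lie behind every point. Over the 7 region means it was -0.44, 0.64 and -0.71 for these pairs, a description of 7 values each. The 2 spots of Ccdc104 had a correlation of -0.06 over the arrays and -0.19 over the region means. The probes with region means most like those of Zfp672 were matrix metalloproteinase 15, an enzyme that cleaves extracellular matrix (root mean square difference 0.24), 5230400G24 (0.27) and 1110008E19 (0.29), of 6990 candidates. Those most like Ccdc104 were the second spot of 5230400G24 (0.29), exotoses (multiple)-like 2 (0.29) and a spot of 1110008E19 (0.30). Those most like 2610528A11Rik were exotoses (multiple)-like 2 (0.18), insulin induced gene 1, which restrains sterol synthesis (0.18), and 9030612M13 (0.19). The second Ccdc104 spot was most like ubiquitin C (0.15), microtubule-associated protein 2 (0.23) and 4732456I21 (0.23).

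For 2 of the spots the size of the difference was not the same in both dye orientations. Over 70 arrays the limma test of the dye orientation called 23.2% of all probes and 39.1% of those above the empty spots. The orientation is balanced in the mean ratio, but it enters the evenness over arrays, so this test is not independent of the choice. For Zfp672, log2 HAB/LAB averaged -0.87 where Cy3 marked HAB and -1.26 where Cy5 did, a difference of 0.39 ± 0.120 (SE, limma adjusted p = 0.013). The gap was widest in CeA, with -0.37 ± 0.567 in Cy3 and -1.53 ± 0.383 in Cy5 (SD, n = 5 each), and in MeA, with -0.63 ± 0.190 in Cy3 and -1.60 ± 0.154 in Cy5. The 2 orientations did not overlap in CeA or MeA, and in SON the order was turned, with -1.35 in Cy3 and -0.99 in Cy5. For Ccdc104 the means were -0.61 and -0.94, a difference of 0.33 ± 0.123 (SE, limma adjusted p = 0.038). It was 0.05 for 2610528A11Rik over all regions (limma adjusted p = 0.869), in which gaps of opposite sign cancelled. In PVN 2610528A11Rik averaged -1.09 in Cy3 and -0.63 in Cy5, and in BLA, at background in HAB, -1.03 and -0.06. In MeA it averaged -0.36 in Cy3 and -1.29 in Cy5, and in Cg, where most Cy3 arrays were scanned on another day, -0.24 and -0.94. The difference was 0.05 for the second Ccdc104 spot (limma adjusted p = 0.903). Print-tip loess in place of 1 smooth per array ended both calls (0.20 for Zfp672, adjusted p = 0.223, and 0.27 for Ccdc104, adjusted p = 0.129, limma). Within either orientation the mean of each of the 3 genes stayed below 0.

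BLA, CeA and Cg were scanned on 2 days each. In CeA the second day held only 2 arrays, both with HAB in Cy3, on which Zfp672 read 0.32 and -0.13. On the first day it read -1.11, -0.78 and -0.16 where Cy3 marked HAB (3 arrays) and from -2.13 to -1.17 where Cy5 did (5 arrays). The Cy3 arrays were thus above the Cy5 arrays within the first day too, and those of the second day included the highest. In BLA, where both days held both dyes, Zfp672 averaged -0.97 on the first day and -0.87 on the second, Ccdc104 -0.85 and -0.39, and 2610528A11Rik -0.47 and -0.94. In Cg the second day held 4 arrays, all with HAB in Cy3, and the first held 1 such array and 5 with HAB in Cy5. There 2610528A11Rik averaged -0.14 on the second day, and the 1 Cy3 array of the first day read -0.62. Day and dye orientation thus cannot be told apart in Cg. With the largest scanning day of each region that held both dyes, the means over the regions were -1.11 for Zfp672, -0.80 for Ccdc104 and -0.65 for 2610528A11Rik. For Cg that day has only 1 array with HAB in Cy3.

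The neighbourhood of the spots, on the slide and on the chromosome, was flat. The 8 spots around Zfp672 on the slide had means between -0.07 and 0.11, those around Ccdc104 between -0.18 and 0.09, and those around 2610528A11Rik between -0.09 and 0.12. Zfp672 and the first Ccdc104 spot were printed by the same tip. Zfp672 was lower than all 479 other probes of that block, whose median was 0.00032, and Ccdc104 was the lowest of these. On the chromosome, the nearest genes with a spot were Irgm2, Igtp (both interferon-induced GTPases) and Mrpl22 (a mitochondrial ribosomal protein) on one side of Zfp672, and Sh3bp5l, Lypd8 and 1810065E05Rik on the other. Their means lay between -0.03 and 0.15, and limma called none. Only Igtp and Sh3bp5l of these were above the empty spots, and Mrpl22 stood 6 genes away. A dim spot near 0 cannot show whether its gene differs between the lines. Around 2610528A11Rik, the spots of Ccser2, Wapl (a cohesin release factor), Ldb3, Ghitm, Tspan14 and Prxl2a lay between -0.12 and 0.13, and none was called. Wapl, Ldb3 (11 genes away), Tspan14 and a Ghitm spot were not above the empty spots. Around Ccdc104, Ppp4r3b, Pnpt1 (a mitochondrial RNA nuclease), Vrk2, Mtif2 and Rps27a (a fusion of ubiquitin with a ribosomal protein) lay between -0.11 and 0.13. Of these, Vrk2 was not above the empty spots.

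The exception was Ccdc88a, the next gene beside Ccdc104 and a coiled-coil protein that binds actin. It had 4 spots under the name C330012F17. One averaged -0.79 ± 0.429 (SD over 7 regions), was lower in HAB in 7 of 7 regions and on 59 of 70 arrays, and was called by limma (adjusted p = 0.00020). It exceeded the empty spots in 23 HAB and 47 LAB readings. The other spots averaged -0.12, -0.07 and 0.07 and were not called, and only the first of these was above the empty spots.

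**Figure D4:**
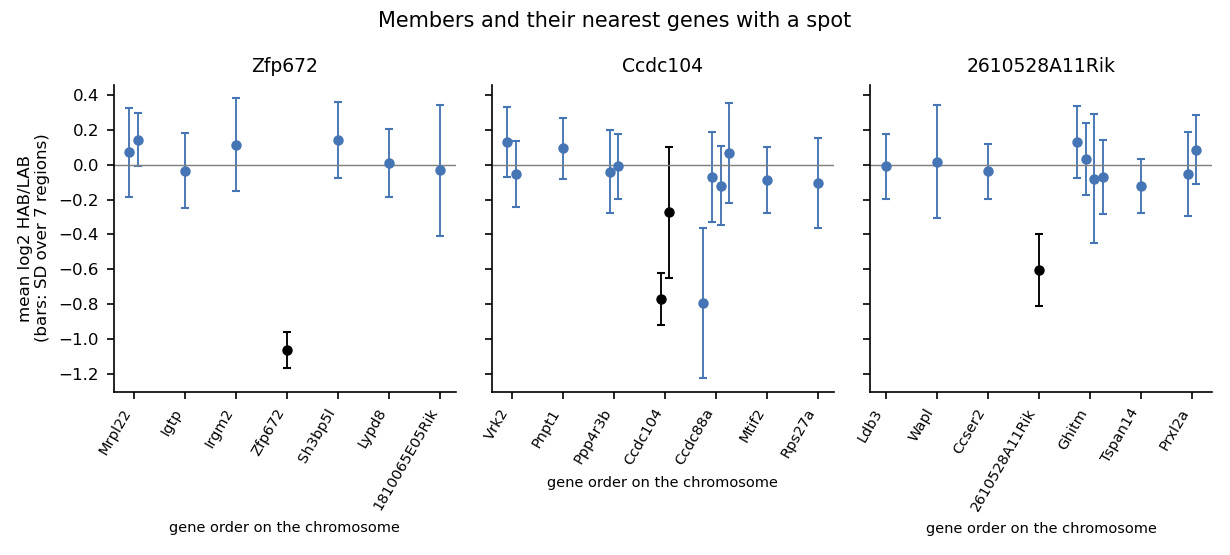
Mean log2 HAB/LAB over 7 regions (vertical axis, bars give the SD over the regions) of the spots of each gene (black) and of the nearest genes with a spot on either side (blue), in chromosome order and not to scale along it. Apart from 1 of 4 Ccdc88a spots (-0.79), the neighbours lie between -0.12 and 0.15.

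In the plot of chromosome neighbours the first spots of the 3 genes stand apart from most spots around them. Many of those are dim, and 1 Ccdc88a spot lies level with Ccdc104. Other genes of the same families and pathways were counted beside the 3 genes, against 0.302% of all probes called. At that share, lists of this size have few calls or none. Of 38 genes of the ARL3 and cilium list on the array, 12 were above the empty spots and 0 were called in either direction by limma, and their median was -0.03, against -0.00059 over all probes. Ptch1, the Hedgehog receptor of the cilium, had -0.19, and Spag6, a protein of motile cilia, was not above the empty spots. Of 42 other coiled-coil domain genes, 11 were above the empty spots and 0 were called on their brightest spot, with a median of -0.03. Ccdc30 and Ccdc115, farthest from 0, were not above the empty spots. The called Ccdc88a spot is not its brightest and belongs to this list.

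Of 169 other zinc finger protein genes, 61 were above the empty spots, and 1 was called lower and 0 higher, near the share of all probes, with a median of 0.02. The called gene was Zfp871 (the 9030612M13 spot), with -0.60 ± 0.228 (SD over 7 regions), lower in 7 of 7 regions and on 55 of 70 arrays (limma adjusted p = 0.00036). Its other 3 spots were not above the empty spots, averaged between -0.22 and 0.000074, and were not called. Zfp9 followed, not above the empty spots and not called. Of 31 genes of the GPR15 and chemokine system, 6 were above the empty spots and 0 were called, with a median of 0.03. Cxcr4, a chemokine receptor, and Ccl27a, a skin chemokine, were farthest from 0, and neither was above the empty spots.

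Markers of other cells were compared because punches can differ in their cells. Over the regions, the median log2 HAB/LAB of the marker genes on the array was -0.07 for microglia (6 genes), -0.02 for ependyma and choroid plexus (4), 0.02 for astrocytes (6), 0.02 for endothelium (4), 0.07 for oligodendrocytes (6) and 0.14 for blood (3). Hbb-b1, the adult beta globin, was called higher in HAB on its brightest spot (0.84, limma adjusted p = 0.00034). A further Hbb-b1 spot was also called higher (0.85), but its dimmest (0.47, not above the empty spots) was not called. Alas2, an enzyme of red cell heme synthesis, had 0.14. Hba-a1, an adult alpha globin, had -0.10 and was lower in HAB in 6 regions. Neither Alas2 nor Hba-a1 was above the empty spots. The blood list (1 of 3 genes above the empty spots) had medians of 0.54 in MeA, 0.58 in Cg and 0.44 in SON. Its medians were 0.07 in PVN, -0.13 in BLA, -0.02 in CeA and -0.07 in NAc. In BLA the ependyma and choroid plexus list (2 of 4 genes above the empty spots) had a median of -0.88 and the oligodendrocyte list (4 of 6 genes) -0.36. The part of these cells in the values of the 3 genes was not tested. Without BLA the means were -1.08 for Zfp672, -0.78 for Ccdc104 and -0.62 for 2610528A11Rik.

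**Figure D5:**
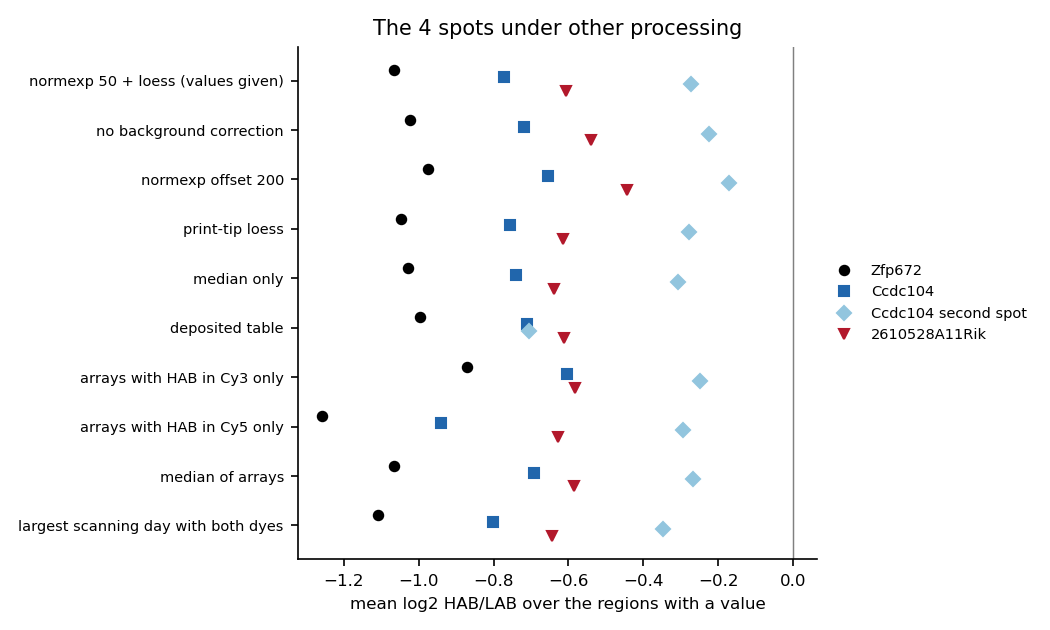
Mean log2 HAB/LAB over the regions with a value (horizontal axis) of the 4 spots under each way of processing the arrays (rows). Every mean lies below 0, from -1.26 to -0.87 for Zfp672, from -0.94 to -0.61 for Ccdc104 and from -0.65 to -0.44 for 2610528A11Rik.

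The plot of processing choices shows that the order of the 3 genes by mean was the same in each row. The deposited log2 table gave -0.997 for Zfp672, from -1.20 in PVN to -0.84 in BLA, and -0.71 for Ccdc104, from -0.91 in NAc to -0.57 in MeA. It gave -0.61 for 2610528A11Rik over 6 regions, from -1.02 in PVN to -0.22 in NAc, with no value for MeA. The second Ccdc104 spot had a value there in PVN alone (-0.71).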

How the data were processed

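Spot and local background intensity of both channels on a linear scale were deposited for each of 70 arrays, quantified by the authors with the QuantArray fixed-circle method and not normalized. A table of log2 ratios, normalized by the authors with a global step and loess and filtered per region, was also deposited. Its columns had medians of -0.0071 to 0.0107 and correlated with HAB/LAB of the same array at 0.861 to 0.972, so its direction is HAB over LAB. It served as an alternative. On 3 arrays the dye of a channel was read from the image name.

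With limma 3.58.1 (R 4.3.3), intensities were background corrected (normexp, offset 50, 79.78% of backgrounds being 0), smoothed by loess (40% of spots) and centred within each print-tip block. Ratios were expressed as HAB over LAB and averaged within, then over, both dye orientations. Levels were quantile normalized between arrays. Line, dye and region fits used all 22824 probes, with Benjamini-Hochberg adjustment at 0.05. In simulated data the line fit recovered 33 and 99% of probes changed by 0.5 and 1 log2, the dye fit 32 and 95%, and the region fit (a change in 1 region) 1 and 32%. The line, dye and region fits called 8, 7 and 0 unchanged probes. The region simulation used the array spread of the ratio and not that of the level, so its rates do not describe the region fit of the data. The line simulation added array spread to a spread of region means that already held it. Its rates thus do not describe the line fit of the data either. Dim probes, print-tip loess, other offsets, dyes, days and left-out replicates and regions were tried as alternatives.

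The genes and all lists were chosen with earlier results of these data known. Genes named beside them were the 3 probes with the most similar region means, the 3 nearest genes on each side, the 2 genes farthest from 0 in each list and 2 probes on each side in the order of means. The brightest spot stood for a listed gene. Of 8206 spots with an identifier or listed name, 7337 were paired with 5119 RefSeq symbols. The qPCR and Illumina measurements were not analysed here.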

Additional observations from a re-analysis of the deposited data

Results flagged for a closer look

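In MeA, 1 of the 5 arrays with HAB in Cy5 lay far from the others for Ccdc104, at -2.49 against -0.86 for the nearest. Of 56 groups of 5 arrays examined for the 4 spots, this was the 1 with such an array, and chance gives about 1 in 20 groups. The log2 HAB/LAB of Zfp672 differed between the dye orientations by 0.39 (limma adjusted p = 0.013), being lower in HAB by more on arrays with HAB in Cy5. That of Ccdc104 differed by 0.33 in the same direction (limma adjusted p = 0.038). Both dye differences lost their call with print-tip loess (limma adjusted p = 0.223 and 0.129), that of Zfp672 also without replicate 3 or 5 (0.093 and 0.056), and that of Ccdc104 without replicate 2, 3 or 5 (0.241, 0.0798 and 0.127).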

How the results depend on the processing

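The means of the 4 spots kept their direction under every alternative run. Those that moved by more than the spread were the means from arrays with HAB in Cy3 alone (-0.87 for Zfp672, -0.61 for Ccdc104), from arrays with HAB in Cy5 alone (-1.26 and -0.94), and that of the second Ccdc104 spot in the deposited table (-0.71, 1 region). Without 1 replicate number at a time, the means ran from -1.08 to -1.05 for Zfp672, -0.82 to -0.73 for Ccdc104, -0.30 to -0.23 for the second Ccdc104 spot and -0.67 to -0.56 for 2610528A11Rik.

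Of all probes, 69 were called for the line difference (29 higher, 40 lower in HAB), 40 with the array median only (22 higher, 18 lower), 44 in the deposited table (of 4180 tested, fewer probes) and 55 to 67 without 1 replicate. With arrays averaged in dye-swapped pairs by replicate number, 418 were called (142 higher, 276 lower). That fit took its error from 35 pairs of technical replicates in place of the 7 region values, so its count cannot be set beside the 69. The replicate number does not pair arrays (correlations of deviations -0.051 to 0.042 over the 35 pairs, 0 of them over 0.1). The dye orientation was called for 5292 probes, 11913 with the array median only, 3203 with dim probes left out (fewer tested) and 3851 to 4410 without 1 replicate. The level over regions was called for 16678, 6165 with dim probes left out and 14924 to 15348 without 1 replicate. With the replicate number as a block, the counts for dye orientation and level were 4738 and 16623.

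The dye difference of Ccdc104 lost its call in the replicate block (adjusted p = 0.0528, limma) and without replicates 2, 3 or 5 (0.241, 0.0798 and 0.127), and that of Zfp672 without replicates 3 or 5 (0.093 and 0.056). For 2610528A11Rik it was 0.41 with the array median only (adjusted p = 0.0243), -0.038 with print-tip loess and from -0.0031 to 0.103 without 1 replicate. For the second Ccdc104 spot it was -0.45 with the array median only and from -0.071 to 0.107 without 1 replicate, and its level over regions passed without replicate 2 (F = 3.61, adjusted p = 0.0078). The cause of these shifts was not tested. Signal limits 2610528A11Rik and the second Ccdc104 spot, above the empty spots on 19 and 3 of 70 HAB readings.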
